A study of Mus musculus with 12 samples.

Results

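The serine and folate one-carbon enzymes are 9 genes, *Phgdh*, *Psat1*, *Psph*, *Shmt1*, *Shmt2*, *Mthfd1*, *Mthfd2*, *Mthfd1l* and *Aldh1l2*, chosen by gene symbol for their place in the pathway out of 40840 symbols with read counts. They and the gene lists used below were chosen with earlier results of these data known. The shares of genes called are therefore descriptions and not tests of the lists. All 9 symbols had a row in every count file. The low-count filter kept 8 of them among 13570 genes tested. *Aldh1l2* did not pass it. RNA-seq was performed on OTII donor cells, which are CD4+ and carry a transgenic receptor for an ovalbumin peptide, after transfer into WT or *Il6*-/- recipients. All recipients were sensitized intranasally with house dust mite (HDM) extract made high in endotoxin by added LPS. They also received ovalbumin, given as the LPS-free EndoFit product. The transferred cells were recovered by sorting from mediastinal lymph nodes at either of the labelled days, Day 3 and Day 5, which gave 4 groups of 3 libraries: WT Day 3, *Il6*-/- Day 3, WT Day 5 and *Il6*-/- Day 5. *Il6* was absent from the recipient, not from the donor cell, so the genotype labels cannot be checked by *Il6* reads. There was no group without sensitization. The labels give blood as the tissue where the series description gives the lymph node, and the description counts days differently from the study, so Day 3 and Day 5 are used here only as the names on the labels. Nothing states that the replicates came from separate animals, and the p values then measure the spread between these libraries, which may be technical.

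Cells build serine from the glycolytic intermediate 3-phosphoglycerate by the successive action of Phgdh, Psat1 and Psph. Serine hydroxymethyltransferases, Shmt1 in the cytosol and Shmt2 in mitochondria, pass a carbon from serine to tetrahydrofolate and leave glycine. The Mthfd enzymes and Aldh1l2 interconvert and release the folate-bound carbon, which is used for purines, thymidylate and methionine, and activated T cells are known to induce this pathway when they start to grow and divide.

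Each library had 16125947 to 26111657 reads counted on genes. The 9 enzymes took 0.164% to 0.178% of these in WT Day 3 libraries, 0.217% to 0.233% in *Il6*-/- Day 3 libraries, 0.0512% to 0.0640% in WT Day 5 libraries and 0.0650% to 0.0978% in *Il6*-/- Day 5 libraries. The 8 CD4+ T-cell markers summed to between 6311 and 12590 CPM, reads scaled to the library total and its TMM factor, in every library, against 5.19 to 10.7 CPM for B-cell markers, 13.6 to 47.8 CPM for myeloid markers and 0.475 to 20.7 CPM for lung epithelial markers.

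In GENCODE vM39 on GRCm39 all 9 are protein-coding genes. *Phgdh* lies on the minus strand at chr3:98220484-98255047, *Psat1* at chr19:15882039-15924701 and *Psph* at chr5:129841925-129864513. *Shmt1* lies at chr11:60661185-60708167 and *Shmt2* at chr10:127352266-127358323, both on the minus strand. *Mthfd1* lies on the plus strand at chr12:76301984-76366588, *Mthfd2* on the minus strand at chr6:83282673-83302890, *Mthfd1l* on the plus strand at chr10:3922870-4117081 and *Aldh1l2* on the minus strand at chr10:83323314-83370005. Reads were counted without regard to strand, so a read in the 465 exon bases that *Psph* shares with *Cct6a*, the 346 that *Shmt1* shares with *Smcr8*, the 727 that *Shmt2* shares with *Ndufa4l2* or the 31 that *Mthfd1* shares with *Gm40443* cannot be told apart. Reads counted as ambiguous between genes were 1.96% to 2.28% of reads in each library and were left out. The levels of enzymes with shared bases may therefore be too low. *Ndufa4l2* stayed at or below 0.317 CPM and *Gm40443* at or below 1.78 CPM. *Cct6a* was a strongly expressed neighbor of *Psph*, at a mean of 525.5 CPM in WT Day 3 libraries. Reads of *Phgdh* could also be lost to, or gained from, its pseudogene *Phgdh-ps1* on chromosome 7.

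The enzymes moved together between days. The sequence before their start sites is shown for those with a stretch of over 45 bases free of annotated exons. That of *Mthfd1l* was 45 bases and is not shown. RefSeq windows of 250 bases upstream of the start were held for 8 of the 9 genes, in 9 windows, since *Psat1* had a pair of starts, and were placed on GRCm39 by exact match. They were searched on both strands for CACGTG, the E-box bound by Myc and Max, for TGATGNAA, the composite element bound by Atf4, and for CCAAT, the box bound by NF-Y. Of 32851 such windows over all genes, CACGTG stood in 6.02%, TGATGNAA in 3.45% and CCAAT in 33.8%. Among the 9 windows of the enzymes, CACGTG stood in 0, TGATGNAA in 0 and CCAAT in 6. The windows with CCAAT belonged to *Phgdh*, *Psat1*, *Psph*, *Shmt1*, *Mthfd1* and *Mthfd2*. In *Psph*, *Shmt1* and *Mthfd1* all 5 bases of every match lay within annotated exons. The windows over all genes were not split by exon overlap. The stretches read 5′ to 3′ on the strand of the gene, with complete CCAAT matches on either strand in capitals. They cover chr3:98247307-98247535 for *Phgdh*, chr19:15902424-15902673 for *Psat1*, chr6:83294605-83294836 for *Mthfd2* and chr10:127358324-127358563 for *Shmt2*, the last shown as a window without a match.
Phgdh: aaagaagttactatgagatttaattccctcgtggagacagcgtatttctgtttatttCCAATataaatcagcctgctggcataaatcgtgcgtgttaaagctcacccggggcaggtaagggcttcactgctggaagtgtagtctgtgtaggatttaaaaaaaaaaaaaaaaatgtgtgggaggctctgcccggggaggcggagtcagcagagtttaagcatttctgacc
Psat1: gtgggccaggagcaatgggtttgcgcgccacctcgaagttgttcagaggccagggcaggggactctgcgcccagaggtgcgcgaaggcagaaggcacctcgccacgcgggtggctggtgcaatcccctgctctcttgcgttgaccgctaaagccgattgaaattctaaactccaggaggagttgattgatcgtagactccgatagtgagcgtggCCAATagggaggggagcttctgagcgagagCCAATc
Mthfd2: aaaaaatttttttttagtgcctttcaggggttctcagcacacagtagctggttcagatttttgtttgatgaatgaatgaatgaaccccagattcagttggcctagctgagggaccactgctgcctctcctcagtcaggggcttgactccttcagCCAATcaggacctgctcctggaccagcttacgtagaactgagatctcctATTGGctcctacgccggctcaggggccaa
Shmt2: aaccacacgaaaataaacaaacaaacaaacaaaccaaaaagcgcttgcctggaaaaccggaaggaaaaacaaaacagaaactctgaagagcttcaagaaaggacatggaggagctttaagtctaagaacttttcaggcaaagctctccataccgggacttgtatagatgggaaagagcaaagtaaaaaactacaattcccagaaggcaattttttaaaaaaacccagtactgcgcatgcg

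Levels of different genes were ordered per kilobase of the canonical transcript. *Phgdh*, the first enzyme of serine synthesis, had the highest level in all 4 groups, at 336 CPM per kilobase in WT Day 3, 477 in *Il6*-/- Day 3, 100.2 in WT Day 5 and 147 in *Il6*-/- Day 5 libraries (means, n = 3). Its range did not overlap that of the next enzyme in any group. In WT Day 3 libraries *Psat1* at 116 and *Mthfd2* at 115 CPM per kilobase followed, and their ranges overlapped. Then came *Shmt2* at 80.7, *Mthfd1* at 40.7, *Psph* at 33.8, *Shmt1* at 27.3 and *Mthfd1l* at 21.0 CPM per kilobase, each below the range of the one before. On Day 5 *Mthfd2*, the mitochondrial dehydrogenase and cyclohydrolase, stood second in both genotypes, at 56.4 and 62.6 CPM per kilobase. *Psat1* and *Shmt2* followed with ranges that overlapped, and so did the ranges of *Shmt1* and *Mthfd1l* at the low end. The place of *Psat1* against *Mthfd2* on Day 3 depends on the length used: over all annotated exons *Mthfd2* stood above *Psat1* in both genotypes, and *Shmt1* above *Psph* in WT Day 3 libraries.

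*Phgdh*, the 3-phosphoglycerate dehydrogenase, had 656, 598 and 655 CPM in the WT Day 3 libraries of replicates 1, 2 and 3, and 931, 906 and 872 CPM in the *Il6*-/- Day 3 libraries. On Day 5 it had 160.5, 209 and 199 CPM in WT and 214, 343 and 276 CPM in *Il6*-/- libraries. Every *Il6*-/- library lay above every WT library of its day, and every Day 5 library lay below every Day 3 library. *Il6*-/- replicate 2 was the highest of the Day 5 libraries, and *Il6*-/- replicate 1 came close to the WT range. *Psat1*, the phosphoserine aminotransferase that acts next, had 315, 294 and 302 CPM in WT and 411, 396 and 397 CPM in *Il6*-/- libraries on Day 3. On Day 5 its values were 69.7, 88.0 and 91.0 CPM in WT and 87.2, 147 and 131 CPM in *Il6*-/- libraries. The genotypes were apart on Day 3 and overlapped on Day 5, where *Il6*-/- replicate 1 fell within the WT range. *Psph*, the phosphatase of the last step, had 80.8, 80.4 and 84.9 CPM in WT and 80.5, 90.3 and 82.0 CPM in *Il6*-/- libraries on Day 3. On Day 5 it had 45.4, 53.9 and 54.6 CPM in WT and 51.9, 54.1 and 53.6 CPM in *Il6*-/- libraries. Its genotypes overlapped on both days, whereas its days did not overlap in either genotype.

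*Shmt1*, the cytosolic hydroxymethyltransferase, had 86.0, 77.0 and 71.8 CPM in WT and 151, 133 and 123 CPM in *Il6*-/- libraries on Day 3. On Day 5 it had 18.8, 27.3 and 21.2 CPM in WT and 26.6, 34.6 and 28.5 CPM in *Il6*-/- libraries. The genotypes were widely apart on Day 3, and on Day 5 WT replicate 2 lay above *Il6*-/- replicate 1. *Shmt2*, its mitochondrial counterpart, had 194, 165 and 196 CPM in WT and 276, 258 and 264 CPM in *Il6*-/- libraries on Day 3. On Day 5 it had 55.3, 64.3 and 63.1 CPM in WT and 61.2, 93.2 and 64.5 CPM in *Il6*-/- libraries. The Day 3 groups did not overlap, and the Day 5 groups did, with *Il6*-/- replicate 2 standing above the other 5 libraries. The ratio of *Shmt2* to *Shmt1* reads was 2.38 ± 0.308 in WT Day 3, 1.97 ± 0.159 in *Il6*-/- Day 3, 2.76 ± 0.351 in WT Day 5 and 2.42 ± 0.238 in *Il6*-/- Day 5 libraries (SD, n = 3).

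*Mthfd1*, the trifunctional cytosolic enzyme, had 159, 119 and 130 CPM in WT and 226, 206 and 187 CPM in *Il6*-/- libraries on Day 3. On Day 5 it had 32.4, 39.1 and 35.5 CPM in WT and 38.0, 64.6 and 37.6 CPM in *Il6*-/- libraries. The Day 3 groups were apart, and on Day 5 only *Il6*-/- replicate 2 stood above the WT range. *Mthfd2* had 243, 245 and 235 CPM in WT and 282, 249 and 269 CPM in *Il6*-/- libraries on Day 3. Its Day 5 values were 106.5, 120 and 129 CPM in WT and 123, 146 and 126 CPM in *Il6*-/- libraries. The Day 3 groups of *Mthfd2* did not overlap but came close to touching, and the Day 5 groups overlapped. *Mthfd1l*, the mitochondrial synthetase that releases formate, had 80.9, 75.6 and 78.0 CPM in WT and 101, 103 and 96.9 CPM in *Il6*-/- libraries on Day 3. On Day 5 it had 20.3, 25.1 and 25.3 CPM in WT and 22.3, 41.8 and 28.9 CPM in *Il6*-/- libraries. Again the Day 3 groups were apart and *Il6*-/- replicate 1 fell within the WT range on Day 5. *Aldh1l2*, the mitochondrial formyltetrahydrofolate dehydrogenase, had 0 reads in 10 libraries, 3 reads in WT Day 5 replicate 2 and 4 reads in WT Day 5 replicate 3. A count of 0 allows up to 3 reads, or 0.117 to 0.176 CPM at the depths of these libraries, so *Aldh1l2* was at or near the limit of detection in every group.

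**Figure D1:**
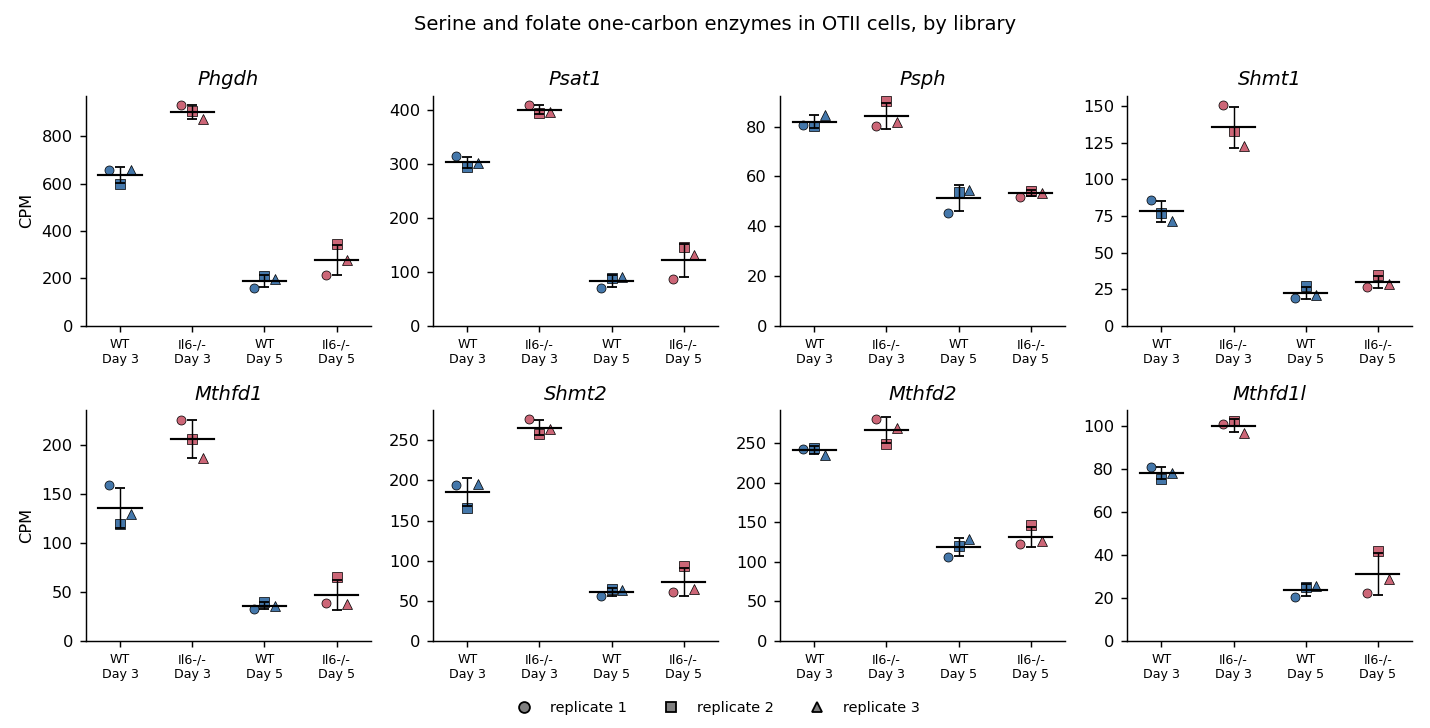
CPM of the 8 enzymes that passed the low-count filter, 1 panel per gene, in the 12 libraries. Points are libraries, with the shape giving the replicate number, and the bars give the mean and SD of 3 libraries. All Day 5 libraries sit below all Day 3 libraries of their genotype in every panel, and *Il6*-/- replicate 2 is the highest Day 5 library for 7 of the 8 genes shown, *Psph* being the exception.

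Whether priming without IL-6 changed the enzymes early was asked on Day 3. *Shmt1*, *Mthfd1*, *Shmt2* and *Phgdh* were higher in the OTII cells that came from *Il6*-/- recipients (edgeR quasi-likelihood test, FDR < 0.05). These were 4 of the 8 enzymes tested, where 7.52% of all genes tested were called higher. No enzyme was lower, where 6.19% of all genes were. *Shmt1* rose from 78.3 ± 7.16 to 136 ± 13.9 CPM, 1.73-fold, with a log2FC of 0.79 (SE 0.13, FDR 0.0011). *Mthfd1* had a log2FC of 0.60 (SE 0.17, FDR 0.027), *Shmt2* of 0.52 (SE 0.13, FDR 0.014) and *Phgdh* of 0.51 (SE 0.13, FDR 0.02). Among the enzymes 0 were higher by at least 2-fold, against 0.936% of all genes.

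*Psat1* (log2FC 0.40, FDR 0.077), *Mthfd1l* (0.36, FDR 0.15), *Mthfd2* (0.14, FDR 0.33) and *Psph* (0.04, FDR 0.83) did not pass on Day 3. The 95% confidence interval of *Psph* ran from -0.14 to 0.22 and that of *Mthfd2* from -0.04 to 0.33 on the log2 scale. WT and *Il6*-/- libraries were fully apart for 7 of the 8 enzymes, all higher in *Il6*-/- recipients, against 20.5% of all genes. An exact permutation test of 3 against 3 libraries cannot give a two-sided p below 0.1. The median log2FC of the 8 enzymes was 0.45, against 0.02 over all genes tested.

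The Day 3 calls depended on single libraries except that of *Shmt1*, which passed in all 12 fits that left out 1 library. Over these fits the log2FC was 0.711 to 0.867 for *Shmt1* and 0.516 to 0.729 for *Mthfd1*. It was 0.463 to 0.532 for *Phgdh* and 0.448 to 0.567 for *Shmt2*. Calls over all genes, 1861 with all libraries, were 942 (6.71%) without WT Day 3 replicate 2 and 1029 (7.33%) without *Il6*-/- Day 3 replicate 1. Without WT Day 3 replicate 2, *Shmt1* was the only enzyme to pass, and *Shmt2* (FDR 0.08), *Phgdh* (0.091) and *Mthfd1* (0.13) did not. Without *Il6*-/- Day 3 replicate 1, it was again alone, with FDR 0.059, 0.073 and 0.11 for the same 3 genes. Without WT replicate 3 or *Il6*-/- replicate 2 of Day 3, *Shmt2* passed beside *Shmt1*, with FDR 0.052 and 0.06 for *Phgdh* and 0.095 and 0.075 for *Mthfd1*. *Psat1* passed on Day 3 (FDR 0.0081) without *Il6*-/- Day 5 replicate 1, and *Mthfd1l* (FDR 0.048) without *Il6*-/- Day 5 replicate 2. Of 4 CD8+ T and NK cell markers tested, 1 was called on Day 3, the NK receptor gene *Klrb1c*, with a mean of 4.82 ± 0.957 CPM for WT against 20.9 ± 4.75 CPM for *Il6*-/- libraries (SD, n = 3, log2FC 2.11). On Day 5 *Klrb1c* went the other way, at 33.1 ± 3.15 CPM for WT against 21.9 ± 2.34 CPM for *Il6*-/- libraries. There 1 of the 4 markers was called lower, against 3.35% of all genes. The 5 markers listed summed to 62.4 to 74.4 CPM in WT and 83.6 to 114 CPM in *Il6*-/- libraries on Day 3. Most of this was *Cd8b1*, at means of 62.7 and 74.7 CPM, with *Cd8a* at 0.835 and 1.04 CPM. The part of these markers in the enzyme differences was not tested.

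On Day 5 *Phgdh* and *Psat1*, the first enzymes of serine synthesis, were higher in the OTII cells that came from *Il6*-/- recipients. These were 2 of 8 enzymes, against 1.27% of all genes called higher, and no enzyme was lower, against 3.35%. *Phgdh* went from 189.6 ± 25.7 to 278 ± 64.5 CPM, a log2FC of 0.55 (SE 0.13, FDR 0.03). *Psat1* went from 82.9 ± 11.5 to 122 ± 30.9 CPM, also a log2FC of 0.55 (SE 0.15, FDR 0.043). *Shmt1* (0.41, FDR 0.1), *Mthfd1l* (0.39, FDR 0.19), *Mthfd1* (0.39, FDR 0.23), *Shmt2* (0.26, FDR 0.29), *Mthfd2* (0.15, FDR 0.38) and *Psph* (0.05, FDR 0.81) did not pass. The libraries of the genotypes were apart for *Phgdh* only, against 8.65% of all genes with the *Il6*-/- libraries higher. The median log2FC of the enzymes was 0.39, against 0.01 over all genes.

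Nothing states what the replicate numbers mark, but same-numbered Day 5 libraries deviated together. The numbers were therefore taken to pair them in an alternative fit. With the number as a block 4 of 8 enzymes passed on Day 5, against 5.43% of all genes called higher. These were *Phgdh* (log2FC 0.53, FDR 0.00031), *Psat1* (0.53, FDR 6e-04), *Shmt1* (0.42, FDR 0.0041) and *Mthfd1l* (0.36, FDR 0.049). Without the block, the Day 5 calls rested on single libraries. No enzyme passed when WT replicate 1, *Il6*-/- replicate 2 or *Il6*-/- replicate 3 of Day 5 was left out, with FDR 0.14, 0.11 and 0.075 for *Phgdh* and 0.19, 0.17 and 0.12 for *Psat1*. In the same order calls over all genes were 225 (1.61%), 256 (1.83%) and 314 (2.25%) in either direction, against 626 with all libraries. Without WT Day 5 replicate 2 *Shmt1* alone passed (FDR 0.043, with 0.051 for *Phgdh* and 0.088 for *Psat1*), with 250 of all genes called (1.79%). *Psat1* also missed the threshold, at FDR 0.059 to 0.064, without WT Day 3 replicate 2 or 3 or any 1 *Il6*-/- Day 3 library, and *Mthfd1l* passed (FDR 0.019) without *Il6*-/- Day 5 replicate 1. Leaving out *Il6*-/- replicate 2 took the Day 5 log2FC of *Mthfd1* to 0.11, of *Mthfd1l* to 0.15 and of *Shmt2* to 0.07.

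Averaged over both days, 6 of the 8 enzymes were higher in cells from *Il6*-/- recipients, against 7.62% of all genes. *Shmt1* had the largest average, 0.60 (SE 0.10, FDR 0.00089), followed by *Phgdh* at 0.53 (FDR 0.0021), *Mthfd1* at 0.50 (FDR 0.014) and *Psat1* at 0.48 (FDR 0.0063). *Shmt2* had 0.39 (FDR 0.011) and *Mthfd1l* 0.38 (FDR 0.038). *Mthfd2* at 0.15 (FDR 0.13) and *Psph* at 0.05 (FDR 0.68) did not pass. *Phgdh*, *Psat1*, *Shmt1*, *Mthfd1* and *Shmt2* passed in all 12 fits that left out 1 library. *Mthfd1l* passed only in the fits without WT Day 5 replicate 3 or without *Il6*-/- Day 5 replicate 1, and its FDR in the other 10 was 0.05 to 0.089.

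**Figure D2:**
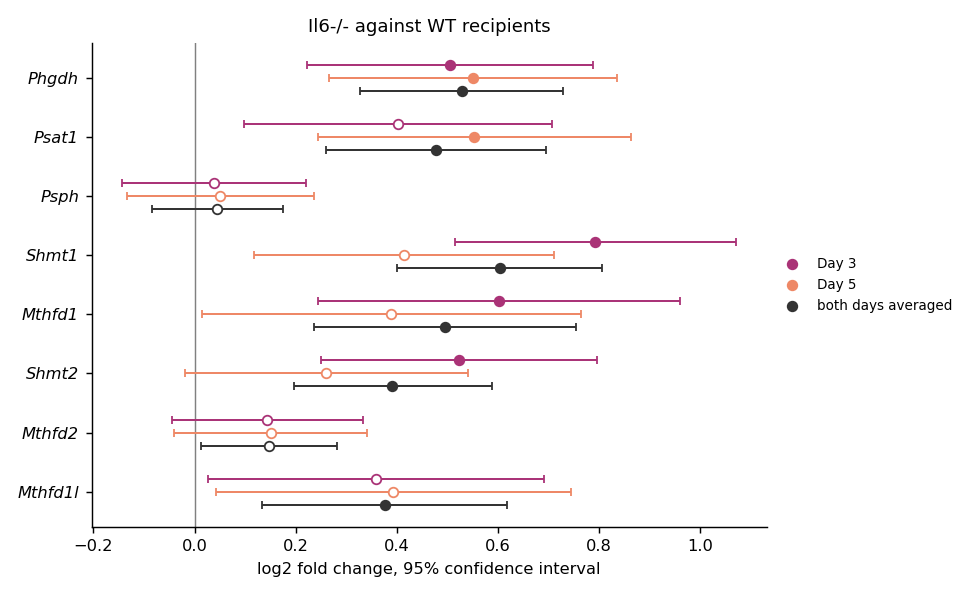
Log2 fold change of OTII cells from *Il6*-/- against WT recipients for the 8 enzymes tested, on Day 3, on Day 5 and averaged over both days. Bars are 95% confidence intervals of the edgeR fit of 12 libraries, filled points passed FDR < 0.05 and open points did not. All 24 points lie above 0, with *Psph* and *Mthfd2* the nearest to it.

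A genotype by day interaction asked if the genotype difference changed with time. It passed for 0 of 8 enzymes, against 3.12% of all genes called higher and 1.8% called lower, and an unadjusted p under 0.05 was reached by 0 of 8, against 20.5% of all genes in either direction. DESeq2 and limma-voom also called 0. The interaction was 0.38 for *Shmt1*, whose genotype difference was larger on Day 3 (95% confidence interval -0.03 to 0.78, FDR 0.28). In the fit with the replicate number as a block it was 0.37 and passed at FDR 0.042. The block set terms for the number within each day, also within Day 3, whose libraries the numbers were not taken to pair. That fit called 1 of 8 enzymes, against 11.5% of all genes in either direction. It was the only 1 of 7 alternative fits in which the interaction of *Shmt1* passed. For *Phgdh* the interaction was -0.04, with an interval of -0.45 to 0.36, and for *Psat1* it was -0.15, with an interval of -0.58 to 0.28.

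The change over time was asked in each genotype by comparing Day 5 with Day 3. All 8 enzymes tested were lower on Day 5 in WT recipients, against 27.1% of all genes, and all 8 were lower in *Il6*-/- recipients, against 30.1%. At least 2-fold falls were seen in 7 of 8 enzymes in WT (9.39% of all genes) and in 7 of 8 in *Il6*-/- recipients (11.4%), *Psph* being the exception in both. The libraries of the days were apart for 8 of 8 enzymes in each genotype, against 29.9% and 32.7% of all genes with Day 5 lower. The counts at FDR < 0.05 stayed at 8 in every fit that left out 1 library. The comparisons use the same 12 libraries as those of genotype, and the values of a gene are therefore given side by side. In bulk RNA, fewer cells with an enzyme and less of its RNA per cell cannot be told apart.

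Among serine synthesis enzymes, *Phgdh* fell by 1.75 in WT and by 1.70 in *Il6*-/- recipients on the log2 scale, *Psat1* by 1.87 and 1.72, and *Psph* by 0.68 and 0.66. *Phgdh* thus fell 3.36-fold in WT, from 636 ± 33.2 to 189.6 ± 25.7 CPM, and *Psph* 1.60-fold, from 82.1 ± 2.47 to 51.3 ± 5.14 CPM. *Shmt1* fell by 1.81 in WT and by 2.18 in *Il6*-/- recipients, the latter 4.54-fold and the largest fall of the 8 enzymes. *Shmt2* fell by 1.61 and 1.87, *Mthfd1* by 1.93 and 2.14, and *Mthfd1l* by 1.73 and 1.69. *Mthfd2* fell by 1.03 and 1.02. The FDR of these falls lay between 1.4e-08 and 8.9e-06.

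The confidence intervals of *Psph* (-0.86 to -0.49 in WT, -0.85 to -0.48 in *Il6*-/- recipients) and of *Mthfd2* (-1.22 to -0.84, and -1.21 to -0.83) lay apart from those of the other 6 enzymes, whose upper bounds were -1.32 or lower. The median log2FC of the 8 enzymes was -1.74 in WT and -1.71 in *Il6*-/- recipients, against 0.09 over all genes in both. With the smaller fall of *Mthfd2*, the ratio of *Mthfd2* to *Mthfd1* reads went from 1.80 ± 0.260 to 3.33 ± 0.290 in WT and from 1.3 ± 0.124 to 2.94 ± 0.594 in *Il6*-/- recipients (SD, n = 3). The ratio of *Psph* to *Phgdh* reads was 0.129 ± 0.00565 in WT Day 3 and 0.0934 ± 0.00659 in *Il6*-/- Day 3 libraries, and 0.272 ± 0.0127 and 0.198 ± 0.0425 on Day 5. The ratio of *Psat1* to *Phgdh* stayed between 0.437 and 0.477 in the means of all 4 groups.

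**Figure D3:**
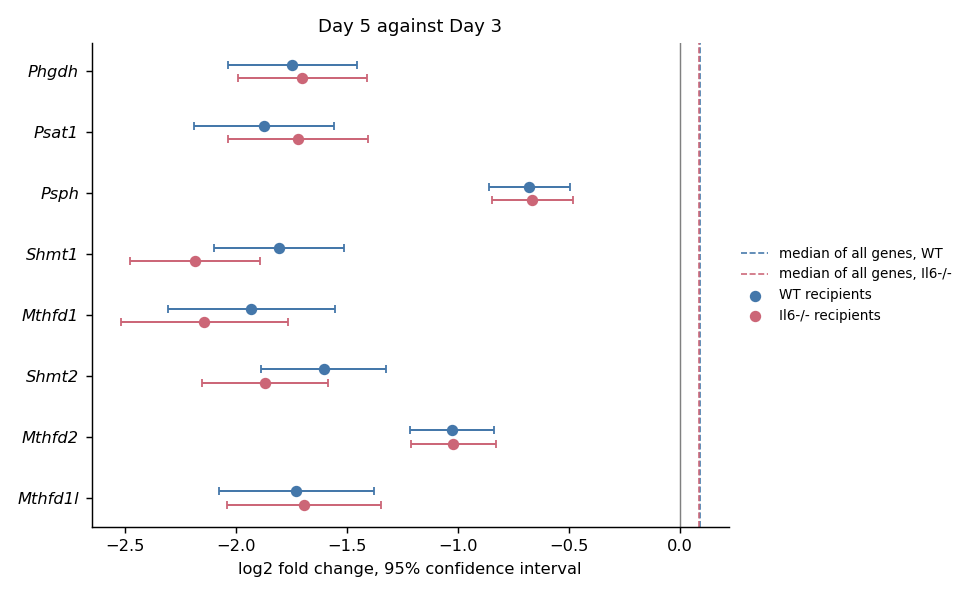
Log2 fold change of Day 5 against Day 3 for the 8 enzymes tested, in WT and in *Il6*-/- recipients, with 95% confidence intervals. Dashed lines give the median of all 13570 genes tested, 0.09 in both genotypes. Every enzyme passed FDR < 0.05, and *Psph* and *Mthfd2* sit to the right of the other 6.

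Proliferation genes moved with the enzymes between the days. All 12 genes of a proliferation list were lower on Day 5 in both genotypes, against 27.1% of all genes in WT and 30.1% in *Il6*-/- recipients, with a median log2FC of -2.89 in WT and -2.26 in *Il6*-/- recipients. Their sum was 6879 to 7571 CPM in WT Day 3, 7470 to 7832 in *Il6*-/- Day 3, 899 to 1359 in WT Day 5 and 1202 to 2309 CPM in *Il6*-/- Day 5 libraries. The sum of the enzymes was 1655 to 1815, 2292 to 2457, 509 to 627 and 624 to 924 CPM in the same order. *Il6*-/- Day 5 replicate 2 had the highest Day 5 value of both sums. Between genotypes, 0 of 12 proliferation genes passed on Day 3, with log2FC from -0.11 to 0.22, and 0 of 12 passed on Day 5, with log2FC from 0.37 to 0.87 and a median of 0.60. Averaged over both days 1 of the 12 was higher in *Il6*-/- recipients, against 7.62% of all genes. The log2FC of the 12 then ran from 0.23 to 0.46 with a median of 0.32, where the median of the 8 enzymes was 0.43. Other measures moved with day as well. In Day 3 libraries 11.7% to 12.9% of reads lay outside genes, against 15.2% to 17.3% in Day 5 libraries. The CD4+ T-cell markers summed to 6777 to 7986 CPM in WT Day 3, 6311 to 6427 in *Il6*-/- Day 3, 12510 to 12590 in WT Day 5 and 10530 to 11810 CPM in *Il6*-/- Day 5 libraries, with 8 of 8 called higher over time in WT and 7 of 8 in *Il6*-/- recipients. The lung epithelial markers summed to 0.494 to 1.52 CPM in WT Day 3, 0.475 to 11.3 in *Il6*-/- Day 3, 2.55 to 20.7 in WT Day 5 and 5.19 to 9.58 CPM in *Il6*-/- Day 5 libraries. The part of proliferation and of these measures in the enzyme differences was not tested.

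**Figure D4:**
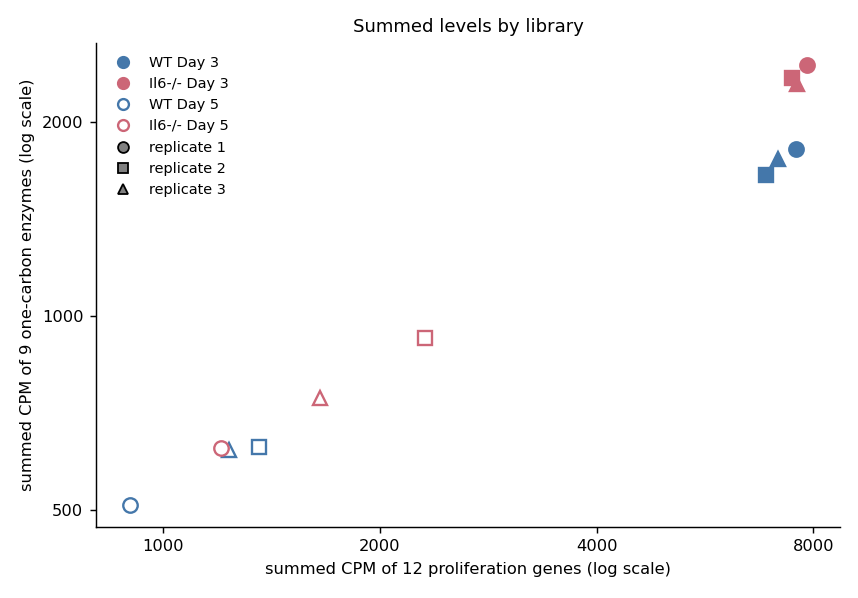
Summed CPM of the 9 enzymes against summed CPM of 12 proliferation genes, both on log axes, 1 point per library. On Day 3 the *Il6*-/- libraries (2292 to 2457 CPM of enzymes) lie above the WT libraries (1655 to 1815 CPM) at nearby proliferation sums, and on Day 5 *Il6*-/- replicate 2 is high on both axes.

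Genes that use or supply the same one-carbon units were read list by list. Over all genes tested, 7.52% were called higher and 6.19% lower on Day 3, and 1.27% and 3.35% on Day 5. Over time 29.5% were called higher and 27.1% lower in WT, and 30.4% and 30.1% in *Il6*-/- recipients. Purine synthesis consumes formyl-tetrahydrofolate, and 10 of its 13 genes tested were higher in *Il6*-/- recipients on Day 3 and 0 lower, with a list median of 0.41. Among them were *Ppat*, the first committed enzyme (log2FC 0.57, FDR 0.0021), *Pfas* (0.54, FDR 0.007), *Prps1* (0.43, FDR 0.007) and *Adsl* (0.37, FDR 0.0076). On Day 5, 1 of 13 passed, *Pfas* (0.49, FDR 0.037), and the list median was 0.15. Over time 11 of 13 fell in WT and 11 of 13 in *Il6*-/- recipients, with medians of -1.04 and -1.28. *Pfas* fell by 1.92 in WT and 1.97 in *Il6*-/- recipients.

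Of 6 genes of thymidylate and deoxynucleotide supply, 1 was higher on Day 3, *Dctd*, which deaminates dCMP (1.2, FDR 0.0028), 0 passed on Day 5, and 6 of 6 fell over time in both genotypes, *Dut* by 2.20 in WT and 2.31 in *Il6*-/- recipients. The 10 folate partners had no call between genotypes on either day, and 2 of the 10 were higher averaged over both days, against 7.62% of all genes. Over time 4 of the 10 were higher and 4 lower in WT, near the shares of all genes. *Tyms*, thymidylate synthase, fell by 2.54, whereas *Mthfsl* had a log2FC of 0.45. In *Il6*-/- recipients 4 were higher and 3 lower. In the methionine cycle 1 of 7 passed on Day 3, *Mat2a*, which makes S-adenosylmethionine (0.59, FDR 0.00037), and 0 of 7 on Day 5. Over time 1 rose and 4 fell in WT, and 1 rose and 5 fell in *Il6*-/- recipients. In the glycine cleavage system, which also loads carbon on folate, *Gcsh* passed on Day 3 as 1 of 3 genes (0.61, FDR 0.001) and 0 of 3 passed on Day 5. Of the same list, *Gldc* had group means of only 0.017 to 0.271 CPM and *Amt* of 0.118 to 0.621 CPM. The call of *Gcsh* is therefore not a reading of the whole system. The genotype difference of *Gcsh* also differed between the days (interaction 0.59, FDR 0.034), where 3.12% of all genes were called higher in the interaction. Of the thymidylate list 1 of 6 genes was also called higher in it. Purine synthesis, the folate partners and the methionine cycle had 0 interaction calls.

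Among 9 carriers of folate, serine or glycine, *Slc19a1*, the reduced folate carrier (0.41, FDR 0.0032), and *Sfxn1*, the mitochondrial serine carrier (0.39, FDR 0.015), were higher and *Sfxn3* lower (-0.45, FDR 0.043) in *Il6*-/- recipients on Day 3, and 0 of 9 passed on Day 5. *Slc19a1* fell by 0.62 in WT and 0.99 in *Il6*-/- recipients over time. Atf4 and Myc are known transcriptional inducers of serine synthesis. Of a list of 13 genes tested that holds both factors and Atf4 targets, 2 were higher on Day 3, *Slc7a5*, a subunit of the large neutral amino acid carrier (0.93, FDR 0.0016), and *Slc3a2*, its partner (0.31, FDR 0.049). In the same list 2 were lower, *Trib3* (-1.21, FDR 0.016) and *Ddit4* (-0.49, FDR 0.014). *Atf4* itself had a log2FC of 0.35 (FDR 0.22) and *Myc* of 0.38 (FDR 0.077), and neither passed. The 2 factors are named here after their values were seen. On Day 5, 0 of 13 passed. In the interaction 1 of these 13 was higher and 1 lower, against 3.12% and 1.8% of all genes. The 9 carriers had 0 interaction calls. Averaged over both days, 9 of 13 purine synthesis and 2 of 6 thymidylate genes were higher. So were 2 of 7 methionine cycle, 2 of 3 glycine cleavage and 3 of 9 carrier genes, against 7.62% of all genes. The list with Atf4 targets had 0 higher and 1 lower, where 2002 of 13570 genes were called in either direction.

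**Figure D5:**
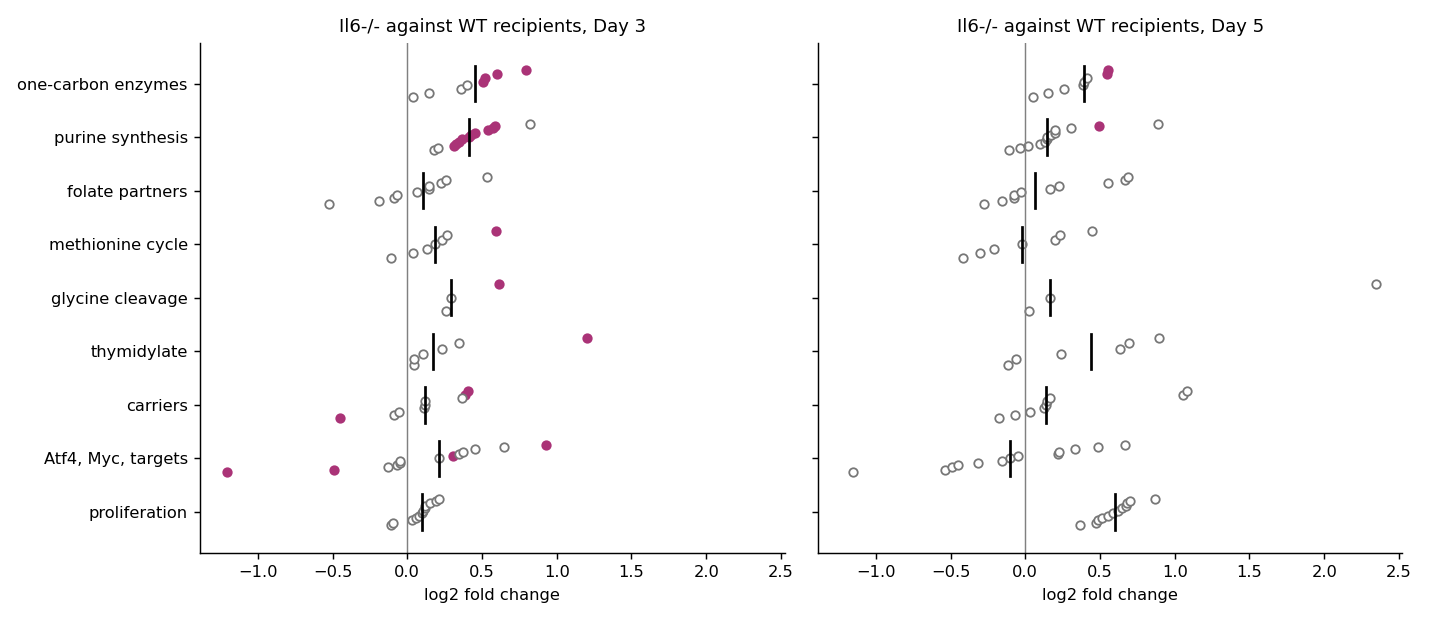
Log2 fold change of *Il6*-/- against WT recipients on Day 3 and on Day 5 for each gene tested of the one-carbon enzymes and 8 related lists. Each point is a gene, filled where FDR was under 0.05, and the black bar is the list median. On Day 3 filled points were most frequent in purine synthesis (10 of 13) and among the enzymes (4 of 8), and on Day 5 the enzymes (2) and purine synthesis (1) held all filled points shown.

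Across the 12 libraries the 5 genes whose log2 CPM was most like the mean standardized log2 CPM of the 8 enzymes were *Snrnp40*, a spliceosome component, *Eif3l*, a translation initiation factor subunit, *Ran*, the nuclear transport GTPase, *Tcp1*, a chaperonin subunit, and *Impdh2*, of guanine nucleotide synthesis (Pearson r 0.998 to 0.999, with 8315 candidates of at least 10 CPM). The libraries share their day and genotype, and 211 candidates had an r of at least 0.99. Among pairs of enzymes r was 0.948 to 0.997, with the upper value reached by *Phgdh* with *Psat1* and by *Mthfd1* with *Shmt2*. After subtraction of the group means, pairs had an r of 0.244 to 0.966.

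Of the genes that share exon bases with an enzyme, *Cct6a*, a chaperonin subunit, was higher in *Il6*-/- recipients on Day 3 (0.54, FDR 0.0027) and fell by 1.35 in WT recipients over time, whereas *Psph*, with which it shares bases, had 0.04 and fell by 0.68. *Smcr8*, the neighbor of *Shmt1*, had -0.06 (FDR 0.85) on Day 3.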

How the data were processed

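OTII cells from 12 samples (4 groups of 3) were profiled by RNA-seq of ultra-low input poly(A) RNA. The authors trimmed reads with Trim Galore 0.4.4, aligned them with STAR 2.5.2a to GRCm39 and counted them on genes, ignoring strand, with HTSeq 0.6.1p1. The deposited values used here are raw read counts per gene symbol. A deposited log2 CPM table was not used. Rows naming no gene held 37.8% to 47.5% of reads and were left out.

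Counts were fitted in R 4.3.3 with edgeR 4.0.16 in a single quasi-likelihood model of 12 libraries with a coefficient per group, TMM scaling (factors 0.944 to 1.06) and filterByExpr (13570 of 40840 genes kept). A call was an FDR < 0.05 over all genes tested. CPM use TMM-scaled library sizes. Code was tested on simulated data. As alternatives, scaling by RLE or upper quartile, no filter or 1 that needs over 1 CPM in 3 or more libraries, limma-voom (limma 3.58.1), DESeq2 1.42.0, a replicate block, the 6 compared libraries alone, and leaving out each library were run.

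Same-numbered WT and *Il6*-/- libraries deviated together on Day 5 (r 0.243, 0.206 and 0.129) and far less on Day 3 (0.0333, 0.0599 and 0.0325). The numbers were therefore taken to pair the Day 5 libraries. This pairing rests on these correlations alone, as nothing states what the numbers mark. No sample was a duplicate (chi-square per degree of freedom 5.24 to 29.7 between replicates). Limits from a count of 0 cover counting error only, whereas the 95% confidence intervals of fold changes come from the fit and its spread between libraries.

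The members and lists were chosen with earlier results of these data known. Named genes are all 9 members, up to 4 genes per related list with the smallest p among those called, the 5 most alike genes, and genes sharing exons with a member. *Gldc*, *Amt*, *Cd8a* and *Cd8b1* are named outside this rule for their levels. GENCODE vM39 matched 32487 symbols (79.5%). A further gene that this rule names is not reported here.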

Additional observations from a re-analysis of the deposited data

How the results depend on the processing

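All 8 enzymes tested were lower on Day 5 under every setting, and no enzyme was called lower in *Il6*-/- recipients. Upper-quartile scaling moved the median of all genes over time from 0.09 to 0.29 in WT and to 0.32 in *Il6*-/- recipients. On Day 5, 5 enzymes were called higher with no filter, 3 by DESeq2, 1 by limma-voom, 4 with a replicate block and 0 with the 6 libraries alone. All genes called in either direction went from 626 to 1397 with no filter, 1127 by DESeq2 and 503 by limma-voom. They were 1592 with the block and 359 with 6 libraries. In the interaction, all genes called went from 668 to 1300 with no filter, 1136 by DESeq2 and 1564 with the block, which also called 1 enzyme, *Shmt1*. The block, with terms within each day, took the genes called in the average from 2002 to 3034. On Day 3 it called 6 enzymes and 2658 of all genes (19.6%) in either direction, against 1861 without it. The other fits with 6 enzymes were no filter, with 2062 of all genes (7.98%), and the 6 libraries alone, with 2738 (22.3%). The replicate numbers were not taken to pair the Day 3 libraries, although each correlated best with its own number. The block changed no call over time.

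Leaving out 1 library gave 1 to 5 enzymes called higher on Day 3 and 942 to 2042 of all genes (1861 with all), 0 to 3 on Day 5 and 225 to 1169 of all genes, 235 to 943 genes in the interaction, and 5 to 6 enzymes and 1297 to 2400 genes in the average.

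Signs turned only for values near 0, and the cause was not tested. *Psph* on Day 3 was 0 to 3 decimals under upper-quartile scaling, and -0.011 to 0.071 leaving out 1 library. On Day 5 its range was -0.029 to 0.10. The interaction of *Mthfd1l* was 0.015 by limma-voom and -0.224 to 0.176 leaving out 1 library, and ranges for *Phgdh*, *Psph* and *Mthfd2* were -0.201 to 0.073, -0.064 to 0.067 and -0.072 to 0.065.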
